A study of Mus musculus with 6 samples.

Results

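The genes described here make up the route by which Leydig cells of the mouse testis turn cholesterol into testosterone. They were taken as a list of 10 symbols, Star, Cyp11a1, Cyp17a1, Hsd3b1, Hsd3b6, Hsd17b3, Lhcgr, Nr5a1, Fdx1 and Scarb1, with every probe set that the array's annotation assigns to them. Of the 10 genes, 8 had at least 1 probe set of their own (13 probe sets), and Hsd3b6 was measured only through 1 probe set that it shares with Hsd3b3 and Hsd3b2. The expression of Lhcgr was not analysed here. The 14 probe sets were read among 22626 tested, which cover 12393 genes.

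Leydig cells lie between the seminiferous tubules, outside the compartment that holds the germ cells. Luteinizing hormone acts on them through a receptor that raises cyclic AMP. Cholesterol is taken up from lipoproteins, carried into the mitochondrion, cut to pregnenolone and then passed through enzymes of the endoplasmic reticulum to testosterone.

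The study hybridised RNA of 3 spermatogonial stem cell preparations and of 3 total testicular cell samples to 1 short-oligonucleotide array each. Both groups came from CD4HAglo transgenic mice, in which a shortened Stra8 promoter drives a surface protein carrying domains of human CD4 (huCD4) in the stem cells. The stem cells are the huCD4-positive cells caught on magnetic beads, with 50 males pooled for each preparation; the age of the mice is not stated in the labels. The comparison samples are titled total testicular cells, whereas their source name gives them as the CD4-negative cells, so whether they are the whole suspension or what the beads left behind is not settled, and the array run headers describe all 6 as stem cell material. The labels number the replicates without saying that they came from separate animals, and the p-values therefore measure the spread between these samples. All values are the deposited log2 probe set summaries, and every difference is stem cells minus total testicular cells.

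The arrays were close in scale, with medians of 3.34 to 3.44 in stem cells and 3.25 to 3.28 in total testicular cells. Between 71.3% and 75.0% of probe sets lay above 2.37, the background read from 27 bacterial control probe sets. Stem cell arrays correlated with each other at 0.970 to 0.984 and total testicular cell arrays at 0.992 to 0.995, and the first principal component held 72.9% of the variance, with stem cell replicate 1 at -78.7 and the other stem cell arrays at -18.8 and -15.3. On the 18 hybridization control probe sets the stem cell arrays averaged 8.96, 8.45 and 8.38 and the total testicular cell arrays 8.51, 8.37 and 8.42. The 18S ribosomal control read 9.01, 7.18 and 8.46 in stem cells and 7.35, 7.23 and 7.54 in total testicular cells. The 3′ minus 5′ signal of the actin control, a sign of RNA quality, was 0.58, 0.41 and 0.45 in stem cells and 0.32, 0.45 and 0.24 in total testicular cells. The same signal of the Gapdh control was -0.452, -0.430 and 0.086 in stem cells and -0.102, -0.185 and -0.045 in total testicular cells. Stem cell replicate 1, the highest array in the genes described here, was also the highest in the hybridization, 18S and actin controls. In the Gapdh control it was the lowest. The part of these controls in the results was not tested. Of 7 markers of undifferentiated spermatogonia, the cell type named in the stem cell titles, none passed the test (limma, adjusted p 0.0739 to 0.950), their median difference was -0.16 and 6 of the 7 were within 2 log2 units of background on the total testicular cell arrays. Of 14 macrophage markers, 11 rose in the stem cell preparations (limma, adjusted p under 0.05), against 202 of all 12393 genes. Cd163 and Itgam averaged below background in total testicular cells, and the log2 of the list's summed linear values was 11.45 to 13.37 in stem cells and 7.71 to 8.33 in total testicular cells. Prm1, a sperm chromatin protein made in haploid germ cells, averaged 13.06 in stem cells and 13.11 in total testicular cells.

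No member of the steroid synthesis list passed the test at the adjusted threshold of 0.05 (limma with Benjamini-Hochberg adjustment over all probe sets), where 316 probe sets, 1.40% of all, passed as higher and 34 as lower. With the arrays centred on the hybridization controls, which shifted the median of all probe sets by -0.17, the split was 844 higher and 487 lower, and with median centring, a shift of -0.11, it was 363 and 91. Every member gene had a higher mean in stem cells, with a median log2 difference of 1.55 over the 8 genes, against -0.05 over all genes. At an unadjusted p under 0.05, 12 of the 14 member probe sets and 8 of the 8 genes were higher, against 11.4% of all probe sets. In 11 of the 14 probe sets the lowest stem cell array lay above the highest total testicular cell array, against 13.5% of all probe sets. In these bulk RNAs a larger share of a cell type and more RNA of a gene per cell cannot be told apart.

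**Figure D1:**
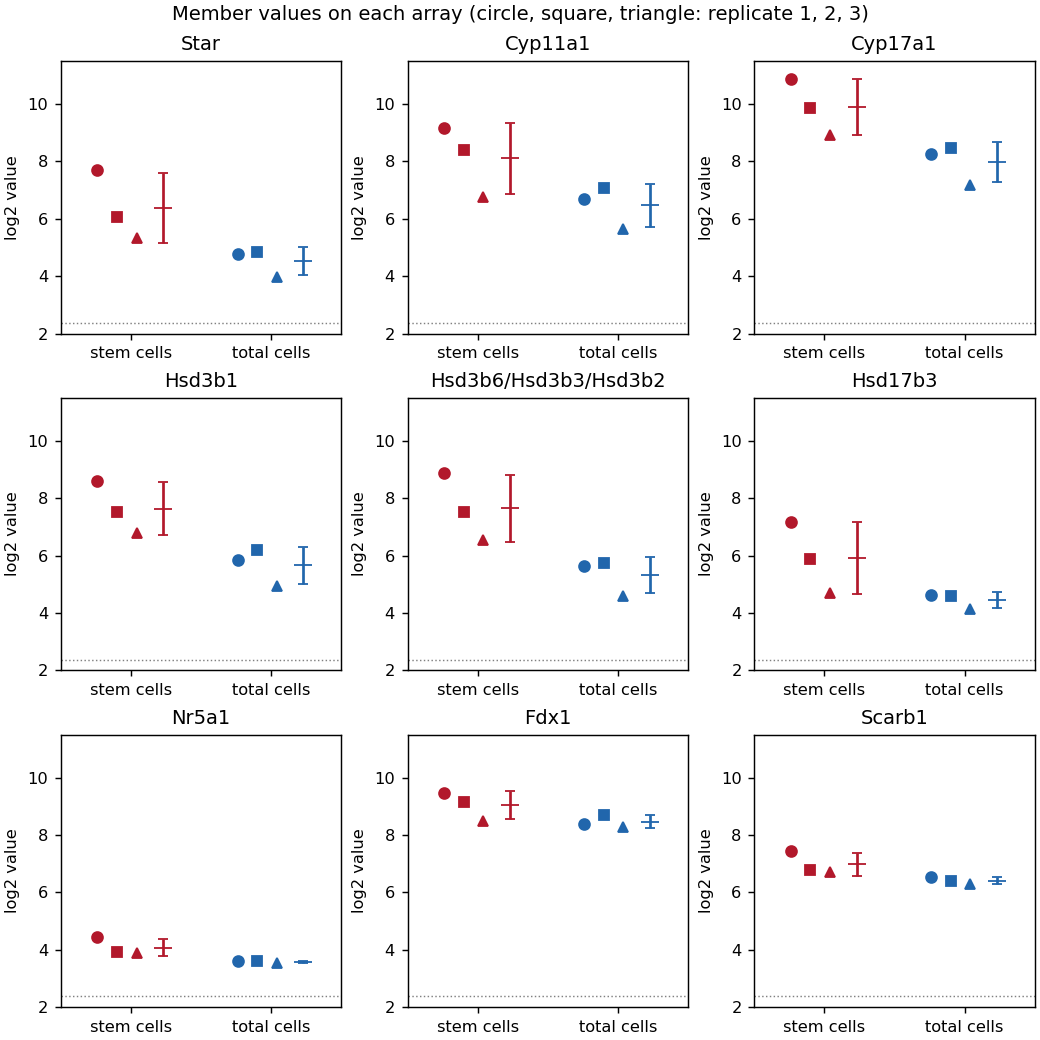
Deposited log2 value of 9 member probe sets on each array, 1 panel each, with stem cells (red) left of total testicular cells (blue). Points are arrays, bars the mean and SD of 3 arrays, and the dotted line the background of 2.37. In all 9 panels stem cell replicate 1 is the highest of the 6 points.

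At the head of the pathway stands Nr5a1, the nuclear receptor (steroidogenic factor 1) that activates most of the other genes of the list. Its brighter probe set read 4.43, 3.91 and 3.87 in stem cells and 3.60, 3.60 and 3.54 in total testicular cells. The groups did not overlap, and the total testicular cell arrays had an SD of 0.03 around a mean of 3.58. The difference of 0.49 ± 0.20 (SE) had an adjusted p of 0.179 (limma). A second Nr5a1 probe set read 2.53, 2.18 and 2.27 in stem cells and 2.44, 2.25 and 2.27 in total testicular cells, above background on only 2 of the 6 arrays, so it carries no usable comparison; its difference was 0.01 ± 0.13.

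Scarb1, the scavenger receptor that takes up cholesterol esters from high-density lipoprotein, had 3 probe sets. The brightest read 7.43, 6.79 and 6.71 in stem cells and 6.54, 6.39 and 6.29 in total testicular cells, without overlap, a difference of 0.57 ± 0.21 (adjusted p 0.157, limma). The other 2 differed by 0.59 ± 0.23 and 0.37 ± 0.21, also without overlap. All 3 gave a higher mean in stem cells, and the smallest of them had an adjusted p of 0.327.

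Star moves cholesterol to the inner mitochondrial membrane, the step that hormone stimulation controls most acutely. Its brightest probe set read 7.71, 6.06 and 5.34 in stem cells and 4.78, 4.83 and 3.96 in total testicular cells. Every stem cell array lay above every total testicular cell array, but the stem cell arrays spanned 2.37 log2 units among themselves. The difference was 1.85 ± 0.52, a 3.60-fold higher level, with an adjusted p of 0.0972 (limma). The other 2 Star probe sets differed by 1.42 ± 0.42 (adjusted p 0.105) and 1.20 ± 0.45 (adjusted p 0.159), both without overlap between groups.

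Cyp11a1, the mitochondrial side-chain cleavage enzyme that makes pregnenolone, read 9.17, 8.40 and 6.75 in stem cells and 6.69, 7.08 and 5.64 in total testicular cells. The groups overlapped, since stem cell replicate 3 fell below total testicular cell replicate 2. The means were 8.11 ± 1.24 and 6.47 ± 0.75 (SD, n = 3 each), and the difference of 1.64 ± 0.57 had an adjusted p of 0.137 (limma). Fdx1, the ferredoxin that passes electrons to Cyp11a1, read 9.48, 9.16 and 8.49 in stem cells and 8.38, 8.70 and 8.27 in total testicular cells. Here too stem cell replicate 3 lay below total testicular cell replicate 2, and the difference was 0.59 ± 0.24 (adjusted p 0.179, limma).

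Hsd3b1 encodes a 3-beta-hydroxysteroid dehydrogenase, which turns delta-5 into delta-4 steroids. It read 8.62, 7.53 and 6.78 in stem cells and 5.84, 6.21 and 4.95 in total testicular cells, without overlap. The difference of 1.98 ± 0.45, or 3.93-fold, had an adjusted p of 0.0651 (limma). Hsd3b6 is the form of the enzyme known for adult mouse Leydig cells, and the probe set it shares with Hsd3b3 and Hsd3b2 read 8.88, 7.52 and 6.56 in stem cells and 5.64, 5.74 and 4.60 in total testicular cells. This was the largest difference of the 14 probe sets, 2.32 ± 0.52 or 5.01-fold, with an adjusted p of 0.0627 (limma). How much of it comes from each of the 3 genes cannot be read from the probe set. A separate probe set annotated to Hsd3b2 alone was below background on all 6 arrays, at 1.83 in stem cells and 1.67 in total testicular cells on average.

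Cyp17a1, the 17-alpha-hydroxylase and 17,20-lyase that commits steroids to androgens, read 10.88, 9.86 and 8.94 in stem cells and 8.27, 8.46 and 7.17 in total testicular cells. The groups did not overlap, and the means were 9.89 ± 0.97 and 7.97 ± 0.70 (SD, n = 3 each). The difference was 1.92 ± 0.47, or 3.80-fold, with an adjusted p of 0.0742 (limma). Hsd17b3, which makes testosterone from androstenedione, read 7.18, 5.87 and 4.70 in stem cells and 4.62, 4.59 and 4.14 in total testicular cells. The groups did not overlap, but stem cell replicate 3 lay just above total testicular cell replicate 1. The difference was 1.47 ± 0.51 (adjusted p 0.139, limma).

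**Figure D2:**
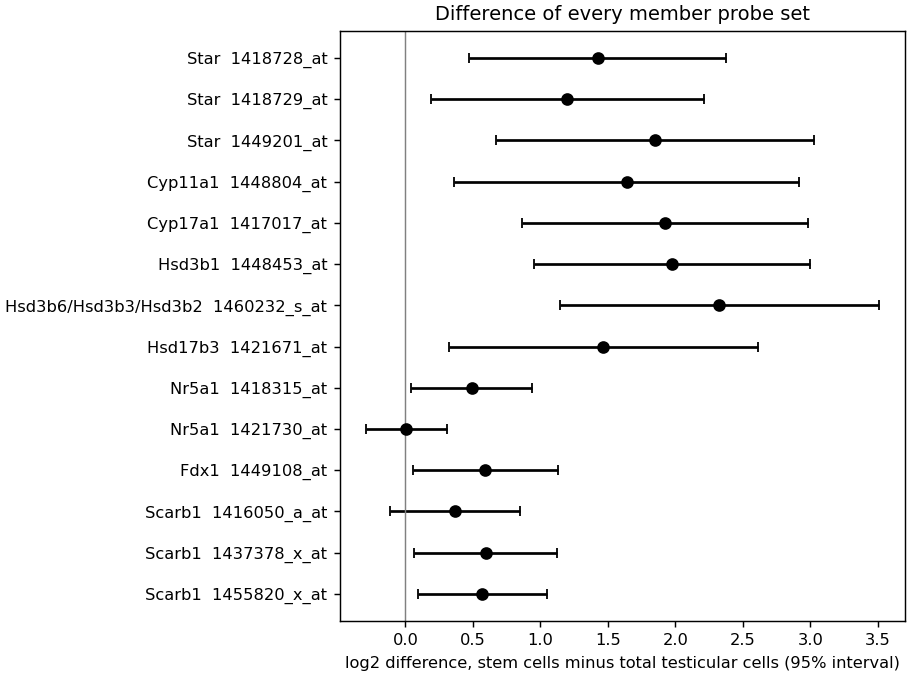
Log2 difference, stem cells minus total testicular cells, of each of the 14 member probe sets, with its 95% interval from limma. The interval of 12 probe sets lies above 0; those of the second Nr5a1 probe set and of 1 Scarb1 probe set include it.

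The spread among the stem cell preparations had 1 order in the probe sets that represent the genes. In 8 of the 8 member genes replicate 1 was the highest and replicate 3 the lowest of the stem cell arrays, and replicate 3 the lowest of the total testicular cell arrays, whereas over all genes these arrays held that place in 30.0%, 28.3% and 36.2%. Over all 14 member probe sets the counts were 14, 11 and 10, since a Star, a Scarb1 and the dim Nr5a1 probe set had replicate 2 as the lowest stem cell array. Set against the average total testicular cell array, the members' median difference was 2.72 in stem cell replicate 1, 1.48 in replicate 2 and 0.30 in replicate 3. The median SD over the members was 0.95 in stem cells and 0.38 in total testicular cells, against 0.24 and 0.13 over all genes. The size of the difference for each of these genes therefore depended on which preparation was read.

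The arrays fell into 3 groups by the run times in their headers, read here as fluidics rounds. Stem cell replicate 1 shared a round with total testicular cell replicates 1 and 3, stem cell replicate 2 shared another with total testicular cell replicate 2, and stem cell replicate 3 ran alone. Cyp17a1 differed by 3.16 within the first of these rounds and by 1.40 within the round of the replicates numbered 2. For Hsd3b1 the same differences were 3.22 and 1.32, for Star 3.34 and 1.23, for Cyp11a1 3.01 and 1.33, for Hsd17b3 2.80 and 1.28, and for Fdx1 1.15 and 0.46. All were above 0, and with 1 stem cell array in each round the preparation and the round cannot be told apart.

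Leaving out stem cell replicate 3 brought members past the adjusted threshold, and raised the probe sets called higher from 316 to 1365 of 22626. Without that array 6 of the 8 genes passed (limma): Cyp17a1 at 2.40 (adjusted p 0.0107), Hsd3b1 at 2.41 (0.0112), Cyp11a1 at 2.32 (0.0119), Hsd17b3 at 2.07 (0.0122), Star at 2.36 (0.0173) and Fdx1 at 0.87 (0.0232). The same 6 passed with the fluidics round as a block, a fit in which stem cell replicate 3, alone in its round, carries no weight. That fit called 1200 of all probe sets higher. With any other array left out, 0 of the 8 genes passed. Centring on the hybridization controls brought 5 past the threshold, with 844 of all probe sets higher. Array weights and the fluidics module as a random block brought 2 each, Cyp17a1 and Hsd3b1, with 853 and 528 of all probe sets higher. Without stem cell replicate 1 the second Star probe set passed on its own, at 0.84 (adjusted p 0.0441, limma). Of 17 other settings, 5 leave a difference as it is by their construction. The same 13 of the 14 member probe sets kept a positive difference under all of the other 12. The remaining one, the Nr5a1 probe set at background, was below 0 under some of them and above 0 under others.

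**Figure D3:**
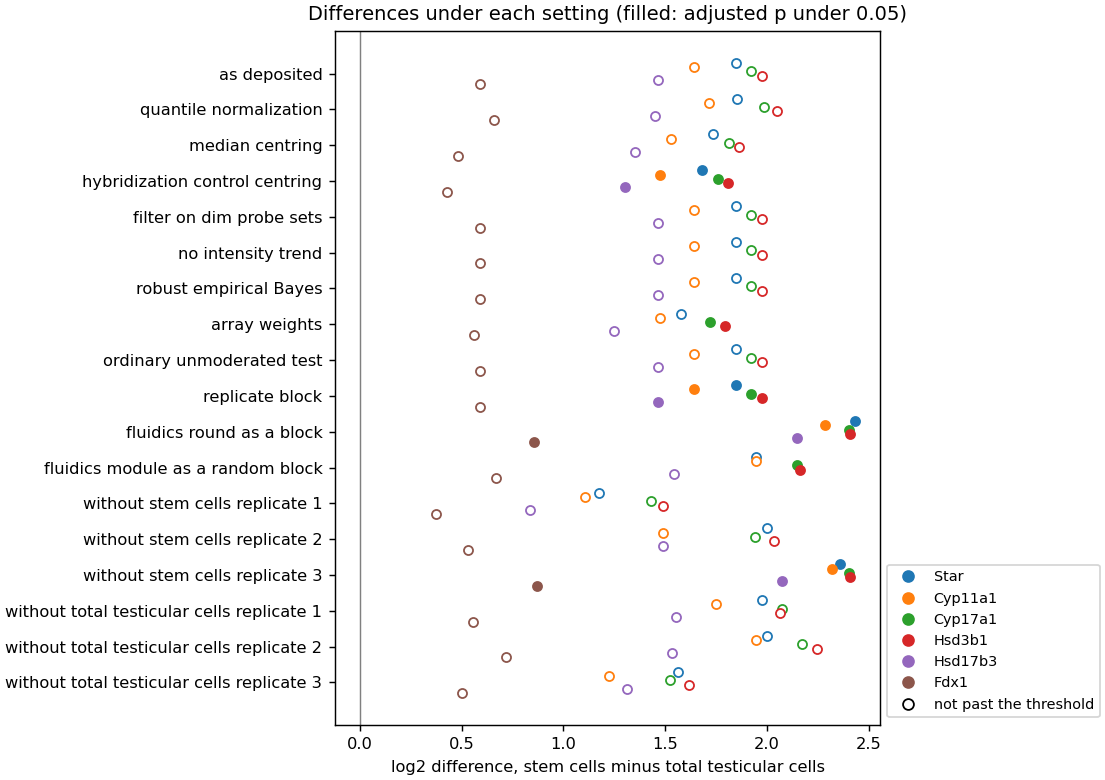
Log2 difference, stem cells minus total testicular cells, of 6 member genes under the deposited values (top) and 17 other settings. Filled points passed an adjusted p of 0.05; for all 6 genes they are filled without stem cell replicate 3 and with the fluidics round as a block, and open with the values as deposited.

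Some members kept nearly fixed proportions to each other, as the pair of Cyp17a1 and Hsd3b1, chosen after its values were seen, shows. Cyp17a1 spanned 3.71 log2 units over the 6 arrays and Hsd3b1 3.67, yet the log2 gap between this pair stayed within 0.27, at 2.27, 2.33 and 2.16 in stem cells and 2.44, 2.26 and 2.23 in total testicular cells. Over the 28 pairs of member genes the gap's range over the arrays had a median of 1.86 and ran from 0.26 to 2.86; Nr5a1, Fdx1 and Scarb1 moved over only 0.89 to 1.21. Against the macrophage genes Csf1r, Cd68 and Lyz2 the gap's range was wider, 2.80 to 5.51 over 24 pairs. Among these macrophage genes themselves it was 0.18 for Csf1r with Lyz2, 0.53 for Cd68 with Lyz2 and 0.56 for Csf1r with Cd68. Nearly fixed proportions were thus not particular to the members. Against Clu, a secreted glycoprotein abundant in Sertoli cells, it was 1.54 to 2.45 over the 8 members, within the range of the member pairs. Csf1r, through which CSF1 acts on macrophages, read 11.13, 9.59 and 9.22 in stem cells and 5.17, 5.76 and 4.73 in total testicular cells. Its difference of 4.76 (adjusted p 0.00489, limma) exceeded that of Cyp17a1, and the gap of Cyp17a1 to Csf1r was 2.84 lower in stem cells than in total testicular cells, at -0.24, 0.27 and -0.28 in stem cells and 3.11, 2.71 and 2.45 in total testicular cells. These values did not overlap (two-sided exact permutation test p = 0.1, the smallest that 3 against 3 allows).

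**Figure D4:**
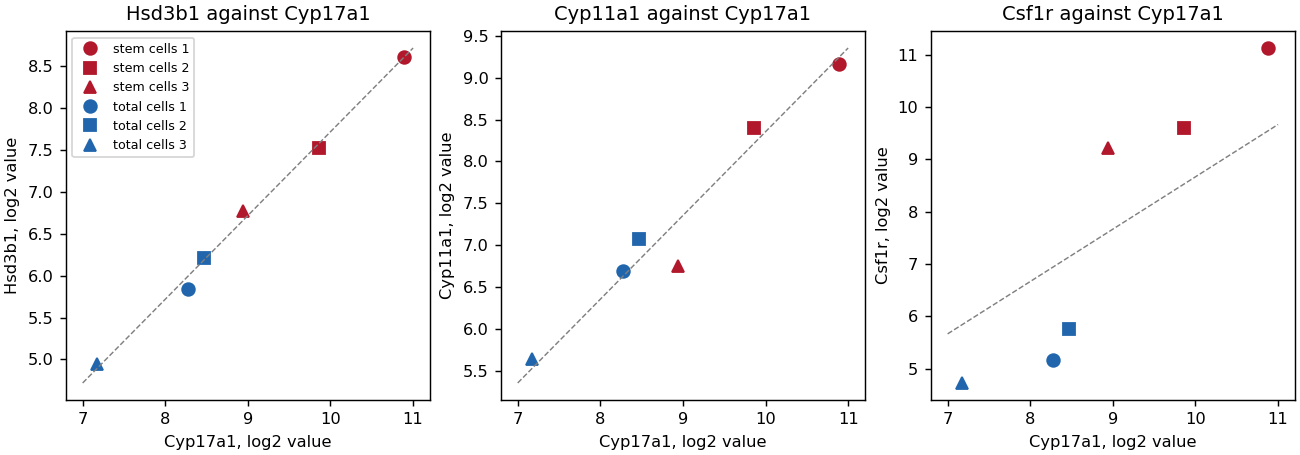
Deposited log2 values of Hsd3b1, Cyp11a1 and Csf1r (vertical axes) against Cyp17a1 (horizontal axis), 1 point per array, stem cells red and total testicular cells blue. The dashed line has a slope of 1: the arrays of both groups lie along it for Hsd3b1 and depart from it for Csf1r, where the stem cell arrays lie above it and the total testicular cell arrays below.

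The macrophage list as a whole ran with the members in the order of the stem cell arrays but at another size. Its 14 genes had a median difference of 4.35, with Cd68, a lysosomal glycoprotein, at 4.34, Lyz2, a lysozyme, at 4.69, C1qc, a complement subunit, at 4.58 and Tyrobp, a signalling adaptor, at 4.55. Replicate 1 was the highest stem cell array in 14 of 14 and replicate 3 the lowest in 12 of 14. Its median difference from the total testicular cell arrays was 5.51, 3.92 and 3.52 in stem cell replicates 1, 2 and 3, so that replicate 3 stood well above the total testicular cells in macrophage genes while its median for the Leydig members was 0.30. Among the member genes the difference in stem cell replicate 3 ran from 0.04 for Fdx1 to 1.11 for Hsd3b1. The log2 of the members' summed linear values was 10.29 to 12.01 in stem cells and 9.36 to 10.14 in total testicular cells. The part of other cells in the members' values was not tested.

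**Figure D5:**
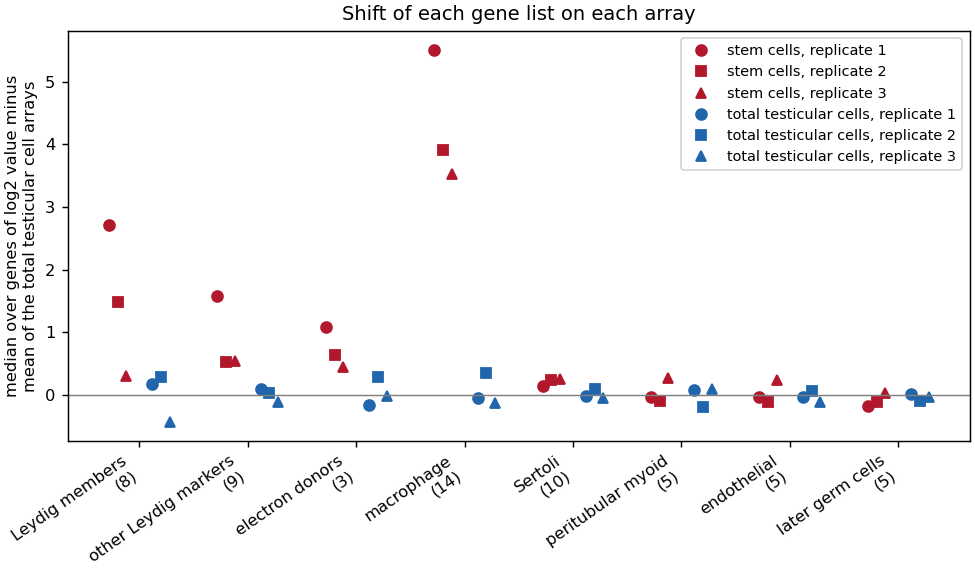
Median over each gene list of the log2 value minus the average over total testicular cell arrays, 1 point per array, stem cells left and total testicular cells right, with the number of genes below each name. The Leydig members spread over 2.72, 1.48 and 0.30 in the stem cell replicates, and the macrophage list over 5.51, 3.92 and 3.52.

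Other markers of Leydig and interstitial cells had higher means in stem cells too, though not all had the members' order of the preparations. Of 9 measured, 0 passed the adjusted test and 9 had a higher mean in stem cells, with a median difference of 1.10. At an unadjusted p under 0.05, 5 were higher, against 11.4% of all probe sets. The median difference of the 9 markers was 1.57, 0.51 and 0.55 in stem cell replicates 1, 2 and 3. Replicate 3 was the lowest stem cell array in 4 of 9, among them Vcam1, Inha and Pdgfra. In total testicular cells 6 of the 9, with Pdgfra among them, were less than 2 log2 units above background or below it, and 2 averaged below it. Vcam1, an adhesion molecule of stromal, endothelial and Leydig cells, read 8.58, 7.48 and 6.46 in stem cells and 5.36, 6.19 and 4.81 in total testicular cells, a difference of 2.05 (adjusted p 0.0749, limma). Another Vcam1 probe set passed the test, at 1.54 (adjusted p 0.0429, limma), and a further one, at 1.62, did not (adjusted p 0.0832). Inha, the inhibin alpha subunit made by Sertoli and Leydig cells, differed by 1.10 (adjusted p 0.0590, limma). Pdgfra, a growth factor receptor of interstitial cells, differed by 1.24 (adjusted p 0.124), and its other probe set by 0.35 (adjusted p 0.401). Hsd11b1 and Igfbp3 differed by 0.12 and 0.21. Nr2f2, at 0.64, was highest in stem cell replicate 3.

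The partners of the P450 enzymes were represented by 3 genes, as Fdxr and Por were not analysed here. Cyb5a, the cytochrome b5 that favours the lyase reaction of Cyp17a1, read 7.38, 6.92 and 6.73 in stem cells and 6.01, 6.59 and 6.27 in total testicular cells. The groups did not overlap, and the difference was 0.72 ± 0.22 (adjusted p 0.111, limma). By their brightest probe sets all 3 genes had higher means in stem cells with a median difference of 0.72, and 0 of the 3 passed the adjusted test. Other probe sets of Cyb5b, a second cytochrome b5 of this list, differed by 0.12 and -0.26. Those of Cyb5r3, its reductase gene, differed by 0.66, 0.27 and -0.25.

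Among 10 genes of cholesterol supply and import, 0 passed the adjusted test and the median difference was 0.39. At an unadjusted p under 0.05, 4 were higher, against 11.4% of all probe sets. Tspo, a protein of the outer mitochondrial membrane, read 5.96, 5.36 and 4.72 in stem cells and 4.33, 4.41 and 4.17 in total testicular cells, a difference of 1.04 ± 0.29 (adjusted p 0.0943, limma). The other 3 were Npc2, which carries cholesterol inside the lysosome, at 1.04, Vdac1, the pore of the outer mitochondrial membrane, at 1.11, and Stard5, a cytosolic cholesterol carrier, at 0.82. Stard5 averaged 2.73 in total testicular cells, near background, and its other probe sets differed by 0.21 and 0.28. Of the 10 genes 8 had a higher mean in stem cells. Acbd3 and Lipe were lower, at -0.36 and -0.18, and the other Acbd3 probe sets differed by -0.53 and -0.82.

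Of 18 further steroid enzymes, 1 rose and none fell (limma, adjusted p under 0.05), against 202 and 17 of all 12393 genes. Their median difference was 0.14. The gene that rose was Hsd17b11, a short-chain dehydrogenase of lipid droplets, not a step of testosterone synthesis. It read 7.60, 6.26 and 5.86 in stem cells and 4.30, 4.78 and 4.08 in total testicular cells, a difference of 2.19 ± 0.40 (adjusted p 0.0405, limma), while its other probe set differed by 0.45 (adjusted p 0.344). Hsd17b12, a ketoacyl-CoA reductase of fatty acid elongation, differed by 1.48 (adjusted p 0.0943). Hsd17b1, which makes oestradiol in the ovary, averaged 2.66 in stem cells and 2.31 in total testicular cells, near background. Of the adrenal enzymes, Cyp11b2 averaged below background in both groups, and Cyp21a1 differed by 0.02 (adjusted p 0.962, limma). Cyp19a1 and Srd5a1 were not analysed here.

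Of 16 regulators of steroid synthesis genes, 0 passed the adjusted test, and the median difference was 0.06. At an unadjusted p under 0.05, 2 were higher and 1 lower, against 2580 and 2748 of all 22626 probe sets. Nr0b1 (DAX-1), a repressor of Nr5a1 activity, read 4.58, 4.85 and 4.15 in stem cells and 4.19, 4.52 and 4.71 in total testicular cells, with overlap and a difference of 0.06 (limma, adjusted p 0.912). Nr4a1, a nuclear receptor induced by luteinizing hormone, differed by 0.39 (adjusted p 0.238), and Gata4, a zinc finger factor of somatic gonadal cells, by 0.06 close to background.

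The 8 genes outside these lists whose pattern over the 6 arrays was most like the members' mean centred profile had Pearson r of 0.996 or above. They were Pld3, Klk1b21, Acadm, Msmo1, Ndufa3, Acsbg1, Aldh1a7 and Ppp3r1. Pld3, a lysosomal exonuclease of the phospholipase D family, had an r of 0.9994 and read 8.86, 7.79 and 6.91 in stem cells and 6.40, 6.54 and 5.73 in total testicular cells. Msmo1, an enzyme of cholesterol synthesis, read 8.16, 7.08 and 5.85 in stem cells and 5.21, 5.56 and 4.40 in total testicular cells. In both, as in the members, stem cell replicate 1 was the highest array and total testicular cell replicate 3 the lowest. In all, 477 of 12393 genes exceeded an r of 0.95 over these 6 arrays in 2 groups. The members themselves form the profile, so their own r is not given as a result. Of the macrophage markers Cx3cr1, a chemokine receptor, reached 0.951 and Csf1r 0.908.

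The members' promoter windows were read from RefSeq (GRCm38.p6, 250 bases before to 50 after each start). The table held 7 windows of 6 members, and Star, Cyp17a1, Nr5a1 and Scarb1 had no entry. The NR5A1 binding motif, searched on both strands as CAAGGTCA or CAAGGCCA, matched 0 of the 7 windows and 3.92% of 32851 windows of this length. Its core AAGGTCA matched 0 of the 7 and 4.72% of all, overlapping the first of these. The shorter TCAAGG, chosen after the windows were read, matched 4 of the 7 and 14.4% of all. Capitals mark TCAAGG or its reverse complement. Of the windows with a match 3 are printed, the other being that of Lhcgr, and beside them the window of Hsd3b6, which has none. They are shown for the gene pair of the mitochondrial step (Cyp11a1, chr9:58014702-58015001, plus strand, the downstream of its 2 starts, and Fdx1, chr9:51963553-51963852, minus strand) and for the neighbouring dehydrogenases Hsd3b1 (chr3:98859745-98860044, minus strand) and Hsd3b6 (chr3:98814394-98814693, minus strand).
Cyp11a1: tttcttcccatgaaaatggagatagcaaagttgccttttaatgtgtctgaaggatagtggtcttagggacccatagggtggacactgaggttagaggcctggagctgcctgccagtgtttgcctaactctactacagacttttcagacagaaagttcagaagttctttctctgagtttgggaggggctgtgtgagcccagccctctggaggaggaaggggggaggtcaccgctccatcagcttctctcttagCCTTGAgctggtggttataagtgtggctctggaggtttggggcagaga
Fdx1: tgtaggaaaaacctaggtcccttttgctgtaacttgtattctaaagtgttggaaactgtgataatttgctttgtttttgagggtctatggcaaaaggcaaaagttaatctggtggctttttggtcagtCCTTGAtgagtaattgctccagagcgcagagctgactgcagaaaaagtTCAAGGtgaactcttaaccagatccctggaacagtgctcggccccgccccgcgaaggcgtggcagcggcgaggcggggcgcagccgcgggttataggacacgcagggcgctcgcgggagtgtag
Hsd3b1: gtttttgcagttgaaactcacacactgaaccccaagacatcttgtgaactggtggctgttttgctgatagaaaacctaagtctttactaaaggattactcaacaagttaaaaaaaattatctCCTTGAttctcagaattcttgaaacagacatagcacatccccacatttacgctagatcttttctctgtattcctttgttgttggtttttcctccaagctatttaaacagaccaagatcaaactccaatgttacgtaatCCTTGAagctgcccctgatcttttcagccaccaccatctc
Hsd3b6: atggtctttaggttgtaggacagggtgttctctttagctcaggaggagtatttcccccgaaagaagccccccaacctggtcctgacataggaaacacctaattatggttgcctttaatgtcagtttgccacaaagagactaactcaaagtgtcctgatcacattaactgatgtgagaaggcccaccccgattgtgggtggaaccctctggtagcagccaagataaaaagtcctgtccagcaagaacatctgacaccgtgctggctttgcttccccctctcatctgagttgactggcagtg
Cyp11a1 held 1 match, Fdx1 2, Hsd3b1 2 and Hsd3b6 0. The matches are letters in these windows and no binding was measured.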

How the data were processed

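Total RNA was labelled with biotin and hybridised to 1 array per sample, per the labels' protocols. The authors deposited log2 probe set values; MAS5 and RMA stand in the submitters' processing notes without a role, so which made the values is not known here. The arrays ran, per the file headers, in 3 fluidics rounds (run starts under 15 minutes apart) and on different modules, both treated as possible batches; the other header fields deposited with the arrays were not used. Groups came from the sample titles.

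The values were used as they stand. After 64 control probe sets were set aside, 22626 were tested with limma 3.58.1 in R 4.3.3 (lmFit, eBayes with an intensity trend, two-sided) and Benjamini-Hochberg adjustment over all of them. The annotation gave 20380 of them 1 gene, 691 several genes and 1555 no gene. A gene was represented by its brightest probe set (mean of the 6 arrays). Folds are derived from log2 differences. Background is the value below which 95% of the values of 27 bacterial control probe sets lie, a choice made after seeing the data, as was the motif TCAAGG; it stands in for depth, and the number of arrays limits the precision. Members, lists and alternatives were chosen with earlier results of these data known. Named genes are all members, up to 4 of each other list past the threshold (largest differences first), 13 preset genes and the 8 most like the members' profile. Vcam1, Inha, Pdgfra, Hsd11b1, Igfbp3, Nr2f2, Npc2, Vdac1, Stard5, Acbd3, Lipe, Cyb5b and Cyb5r3 were named after their values were seen. So were Hsd17b12, Cyp11b2, Cyp21a1, Prm1, Gata6, Gnas, Prkacb, Pde4a, Pde4b, Cd163, Cx3cr1 and Itgam. Whether the replicate numbers pair the samples is not settled: deviations of same-numbered arrays from their group means correlated at -0.01, 0.01 and 0.30. Deviations from a group mean cancel within the group, so these correlations cannot decide it. The procedure was tested on simulated data.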

Additional observations from a re-analysis of the deposited data

How the results depend on the processing

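The count of member genes past the adjusted threshold, 0 of 8 with the values as deposited, was 5 with the arrays centred on hybridization controls, 2 with array weights, 5 with the replicate block, 6 with the fluidics round as a block, 2 with the fluidics module as a random block, 8 at an unadjusted p of 0.05, and 0 to 6 with 1 array left out. The 5 were Star, Cyp11a1, Cyp17a1, Hsd3b1 and Hsd17b3, and the 2 were Cyp17a1 and Hsd3b1. It was 0 with median centring, quantile normalization, dim probe sets left out, no intensity trend, robust empirical Bayes, an ordinary unmoderated test and a threshold of 0.01. The count of all probe sets higher in stem cells (316) was 844 with hybridization control centring, 119 with no trend, 853 with array weights, 0 with the unmoderated test, 1065 with the replicate block, 1200 with the round, 528 with the module, 53 at 0.01, 2580 at an unadjusted p of 0.05 and 36 to 1365 with 1 array left out. The count lower (34) was, in the same order, 487, 6, 148, 0, 196, 84, 67, 0, 2748 and 0 to 943, and 91 with median centring. The Nr5a1 probe set at background (0.01) changed sign: -0.0282 with quantile normalization, -0.105 with median centring, -0.158 with hybridization control centring, -0.0608 with array weights, -0.0107 with the module, and from -0.0949 (without stem cell replicate 1) to 0.0807 (without stem cell replicate 2) with 1 array left out, also below 0 without total testicular cell replicate 2 or 3. The cause of these changes was not tested, except that the round block gives stem cell replicate 3 no weight. Whether replicate numbers pair the samples is not settled, and not every array correlated best with the array of its own number. Probe sets near background, such as Hsd17b1, Gata4 and this Nr5a1 probe set, limit what can be read of those genes.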

Other observations

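Cyclic AMP signalling genes downstream of the luteinizing hormone receptor had differences of both signs. Of 11 measured, 0 passed the adjusted test (limma), and the median difference was 0.06. At an unadjusted p under 0.05, 2 were higher and 2 lower, against 2580 and 2748 of all 22626 probe sets. Gnas, the stimulatory G protein alpha subunit, read 9.06, 8.31 and 8.06 in stem cells and 7.29, 7.52 and 7.30 in total testicular cells, a difference of 1.11 (adjusted p 0.0571). Prkacb, a catalytic subunit of protein kinase A, differed by 1.36 (adjusted p 0.131), while the phosphodiesterases Pde4a and Pde4b, which break down cyclic AMP, differed by -0.44 and -0.49. Among the regulators Gata6, a zinc finger factor of somatic gonadal cells, read 3.82, 4.13 and 3.63 in stem cells and 4.67, 4.48 and 4.55 in total testicular cells, a difference of -0.71 (adjusted p 0.0888), opposite in sign to the steroid synthesis genes.

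The Sertoli marker Clu differed from the steroid synthesis genes in the order of the preparations. Clu, a secreted glycoprotein abundant in Sertoli cells and made by other cell types too, rose by 2.02 (limma, adjusted p 0.0234). Clu was the only 1 of 10 Sertoli markers to pass, where 202 of all 12393 genes passed as higher. It read 11.04, 9.52 and 10.31 in stem cells and 8.34, 8.35 and 8.14 in total testicular cells, so that its lowest stem cell array was replicate 2, where the steroid synthesis genes had replicate 3. The median difference of the 10 Sertoli markers was 0.26, at 0.14, 0.23 and 0.24 in stem cell replicates 1, 2 and 3, and in total testicular cells 8 of these markers were less than 2 log2 units above background or below it. The 5 peritubular myoid and 5 endothelial markers had medians of 0.05 and 0.01 with 0 past the adjusted threshold, and 4 of the 5 endothelial markers averaged below background in both groups.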
